A study of Mus musculus with 96 samples.

Results

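The insulin-like growth factor (IGF) binding proteins Igfbp2, Igfbp3, Igfbp4, Igfbp5, Igfbp6 and Igfbp7 and the receptors Igf1r and Insr were followed in mouse intestinal organoids, which are self-organising epithelial cultures. These 8 genes were taken by symbol from 55536 gene IDs in the expression tables. They were selected on the TPM values (transcript levels scaled by length and library size) of Igfbp4 in these tables, whose difference between Bmal1-null and Bmal1 wild-type organoids had opposite signs in the 2 Apc genotypes. The genotype differences of Igfbp4 are therefore given as a description, with no test, and tests are given for the other 7 genes and for change over time. Organoids of C57BL/6 mice carried APCmin/- with BMAL1-/- (called Apc-min Bmal1-null), APCmin/- with wild-type Bmal1 (Apc-min), wild-type Apc with BMAL1-/- (Bmal1-null), or wild-type alleles of both genes (control). All were given 0.1 µM dexamethasone, a glucocorticoid that sets the clocks of the cells to a common phase, for 1 h, and RNA was sequenced every 2 h from 24 to 46 h afterwards. The tables hold 22 libraries per genotype, 88 in all, at 12 time points. Each genotype was represented by 2 organoid lines, and the labels do not say which line a library came from. The p-values therefore measure the spread between libraries, which may be technical, and not between lines.

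IGF-1 and IGF-2 signal for growth and survival through the receptor tyrosine kinase encoded by Igf1r, and the related insulin receptor, encoded by Insr, also takes IGF-2 in one of its isoforms. Most IGF in tissue fluid is held by secreted binding proteins, which keep it from the receptors or store and deliver it, and proteases such as pregnancy-associated plasma protein A cut some of them, IGFBP4 among them, to release the ligand. Bmal1 (gene symbol Arntl) is the transcription factor that, as a partner of CLOCK, binds E-box sequences and drives the circadian clock, and Apc restrains Wnt signalling in the intestinal crypt.

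The 88 libraries held 28.8 M to 48.1 M uniquely mapped reads. Organoids with APCmin/- were kept in EN and those with wild-type Apc in ENR, a medium with added R-spondin that raises Wnt signalling, and their libraries carry numbers 1 to 48 against 49 to 96. Genotype at Apc, medium and library series cannot be told apart. Reads unmapped as too short also moved with them, at 0.75 to 3.86% in Apc-min Bmal1-null and 0.82 to 1.96% in Apc-min libraries, against 2.9 to 13.2% in Bmal1-null and 2.93 to 15.8% in control libraries. The Bmal1 labels were checked on Arntl, which averaged 4.86 TPM ± 2.42 in Apc-min Bmal1-null against 11.1 TPM ± 3.44 in Apc-min organoids (4.39 TPM ± 1.03 against 11.4 TPM ± 3.14, SD, n = 21 each, without the pair of libraries described next), and 8.67 TPM ± 1.14 in Bmal1-null against 14.9 TPM ± 2.74 in control organoids (SD, n = 22 each). Apc averaged 15.4 TPM ± 4.43 in Apc-min Bmal1-null and 14.9 TPM ± 4.44 in Apc-min organoids, against 8.80 TPM ± 2.77 in Bmal1-null and 9.5 TPM ± 3.25 in control organoids, which does not check a point mutation. The lower-numbered libraries labelled Apc-min Bmal1-null and Apc-min at 28 h go against their labels, with Arntl at 14.7 TPM in the first and 4.09 TPM in the second. A score over 1020 genes was set to 1 for the average Apc-min Bmal1-null library and to 0 for the average Apc-min library. The first of them scored -0.23, where the other 21 of its genotype scored 0.95 to 1.07. The second scored 0.99, where the other 21 scored -0.30 to 0.26. Both were kept under their labels, and results on the 8 genes that rest on them are also given without them.

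The RNA was epithelial. All 7 epithelial markers, among them Epcam, were present in every genotype, and the 7 fibroblast markers summed to at most 2.94 TPM in any library. In bulk RNA, fewer cells of a type and less RNA per cell cannot be told apart. Differentiated cell markers differed between the genotypes. The 5 enterocyte markers summed to 1.14 to 8.13 TPM in Apc-min Bmal1-null and 0.45 to 2.57 TPM in Apc-min libraries, against 3857 to 5489 TPM in Bmal1-null and 4040 to 6178 TPM in control libraries. The 4 Paneth cell markers summed to a median of 529.9 TPM in Apc-min Bmal1-null and 1899 TPM in Apc-min libraries, against 14750 TPM in Bmal1-null and 14530 TPM in control libraries, and without the doubted pair they were at 309 to 955.8 TPM in Apc-min Bmal1-null and 1181 to 3563 TPM in Apc-min libraries, with no overlap. The 4 goblet cell markers summed to a median of 251.9 TPM in Apc-min Bmal1-null and 96.9 TPM in Apc-min libraries, against 5291 TPM in Bmal1-null and 5544 TPM in control libraries, and without the doubted pair they were at 165 to 359.6 TPM and 54 to 205.9 TPM, which overlap. Paneth and goblet cell markers thus moved with the Bmal1 comparison in organoids with APCmin/- as well as with Apc. The part of these cell types in the differences below was not tested. Of 4 smooth muscle markers, Acta2 alone reached 1 TPM, at 2.06 to 19.4 TPM in Apc-min Bmal1-null and 0.25 to 11 TPM in Apc-min libraries (the 4 summed to at most 5.06 TPM in Apc-min libraries without the doubted one), with Myh11, Des and Cnn1 under 1 TPM in every library. Of 4 endothelial markers, Pecam1 and Kdr were under 1 TPM in every library, and the 4 summed to 3.98 to 19.3 TPM in Apc-min Bmal1-null and 2.11 to 20.2 TPM in Apc-min libraries, against at most 0.68 TPM in Bmal1-null and 0.62 TPM in control libraries, and without the doubted library to at most 11.4 TPM in Apc-min Bmal1-null libraries. The 5 immune markers summed to 3.21 to 11.9 TPM in Apc-min Bmal1-null and 6.98 to 27.4 TPM in Apc-min libraries, against 1.09 to 3.16 TPM in Bmal1-null and 1.08 to 3.18 TPM in control libraries, with Ptprc, Cd3e and Adgre1 under 1 TPM in every library. Their part was not tested either.

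Promoters of 7 of the 8 genes were found in the RefSeq table of GRCm38.p6, which has no entry for Insr. They were searched on both strands for CACGTG (the E-box) and the variant CACGTT, the REV-ERB and ROR motifs AGGTCA and GGGTCA, the D-box letters TTATGTAA, TTACGTAA and TTATGCAA, and CTTTGAT (the site of TCF and LEF factors), in windows of 300 bases. The 250 bases before the start of Igfbp4, which is shown as the gene with opposite Bmal1 differences, hold none of these letters. The upstream stretches of Igfbp2 and Igfbp3 are shown beside it. Igfbp2 was the 1 gene of the 7 with CACGTG, printed in capitals 142 bases before its start at 72824480. Another listed start of Igfbp2, at 72825387, had none of the motifs in its window. Igfbp3 differed most between the Apc genotypes. These stretches lie at chr11:99040994-99041243 on the plus strand, chr1:72824230-72824479 on the plus strand and chr11:7213924-7214173 on the minus strand, and read 5′ to 3′:
Igfbp4: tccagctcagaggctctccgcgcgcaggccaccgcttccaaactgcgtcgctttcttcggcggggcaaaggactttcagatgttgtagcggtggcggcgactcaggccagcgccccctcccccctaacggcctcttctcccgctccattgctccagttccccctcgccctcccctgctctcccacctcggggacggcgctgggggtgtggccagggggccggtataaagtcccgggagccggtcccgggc
Igfbp2: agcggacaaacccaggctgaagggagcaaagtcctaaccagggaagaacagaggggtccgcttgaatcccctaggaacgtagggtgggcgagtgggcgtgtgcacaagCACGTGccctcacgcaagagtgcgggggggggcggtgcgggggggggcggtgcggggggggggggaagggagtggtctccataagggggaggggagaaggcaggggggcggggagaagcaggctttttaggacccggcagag
Igfbp3: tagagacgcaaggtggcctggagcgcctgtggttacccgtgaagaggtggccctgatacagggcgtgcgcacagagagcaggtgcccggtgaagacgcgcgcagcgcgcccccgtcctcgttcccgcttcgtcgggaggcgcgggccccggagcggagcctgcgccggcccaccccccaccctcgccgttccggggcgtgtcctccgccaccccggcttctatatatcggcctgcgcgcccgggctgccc
CACGTG occurs in 7.15% of all 32851 promoter windows. AGGTCA was found in the window of Igf1r, as in 16.3% of all windows, and GGGTCA in that of Igfbp6, as in 13.7%. No other motif was found in the windows of the 7 genes. A match describes the letters only and a missing match says nothing about a factor elsewhere in the gene.

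Igfbp4 (ENSMUSG00000017493, chromosome 11, 99041244 to 99054392 on the plus strand, GRCm38), which encodes a binding protein that mainly inhibits IGF action, was the most abundant of the binding proteins in organoids with wild-type Apc and the 1 whose level in TPM spread most between genotypes. In the 22 Bmal1-null libraries it ranged from 9.83 to 18.1 TPM with a median of 12.7 TPM, against 44.5 to 78.7 TPM with a median of 60.9 TPM in the 22 control libraries. The ranges do not overlap, and Bmal1-null organoids were lower at 12 of 12 time points. The mean was 13.3 TPM ± 2.18 in Bmal1-null and 61.6 TPM ± 6.89 in control organoids (SD, n = 22 each). On the log2(TPM + 1) scale used for every difference here, Igfbp4 differed by -2.13 ± 0.06 (SE), a 4.37-fold lower level in Bmal1-null organoids, and the difference at single time points ran from -2.38 at 30 h to -1.73 at 24 h. By absolute size it ranked 6 of the 12654 genes that averaged at least 1 TPM in either genotype. In this comparison 0.166% of genes passed an adjusted p under 0.05 with a difference of 2-fold or more. Igfbp4 was chosen on its Bmal1 differences, so its rank is a description and lends them no support. The lower-numbered and the higher-numbered library of each time point, called library sets below, gave -2.15 and -2.16.

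**Figure D1:**
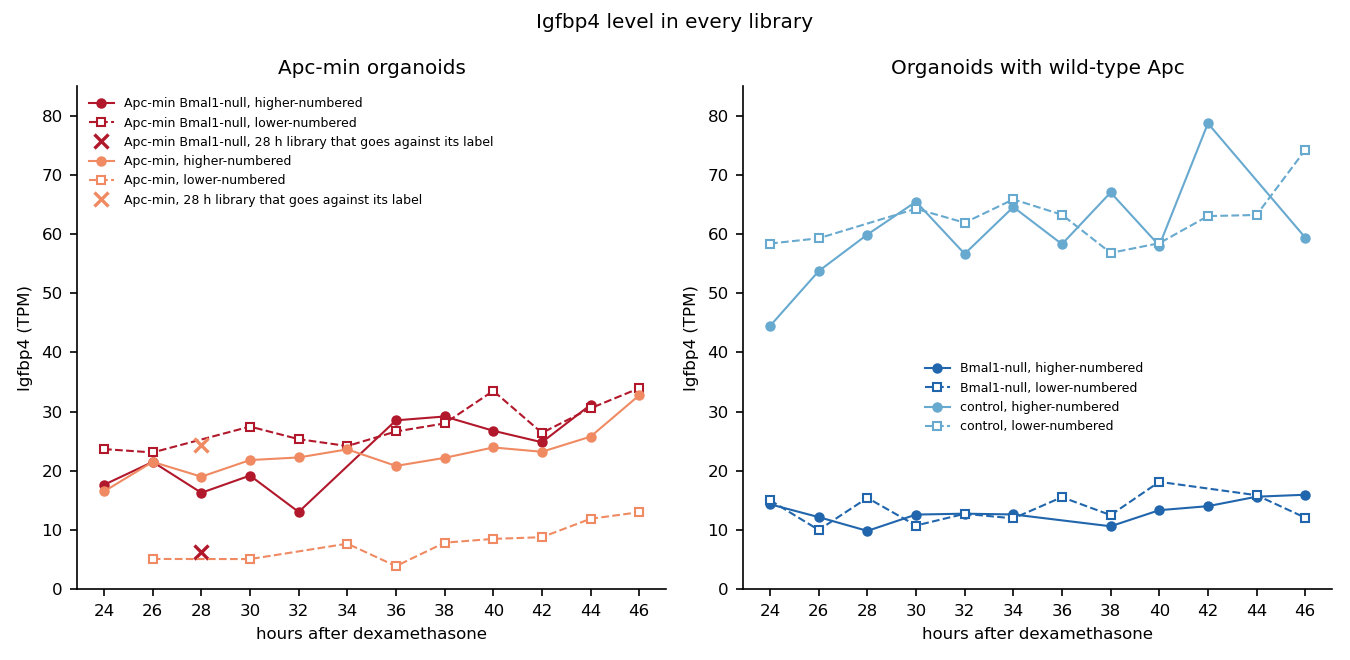
Igfbp4 in TPM (y axis) against hours after dexamethasone (x axis) in each of the 88 libraries, with Apc-min Bmal1-null and Apc-min organoids on the left and Bmal1-null and control organoids on the right. Lines join the libraries of a set and crosses mark the pair of 28 h libraries that go against their labels. Bmal1-null libraries stay between 9.83 and 18.1 TPM below control libraries at 44.5 to 78.7 TPM, while in Apc-min organoids the lower-numbered set stands apart from the other 3 sets of that panel.

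In organoids with APCmin/- the sign was turned and the libraries were not uniform. Igfbp4 ranged from 6.22 to 33.9 TPM with a median of 25.9 TPM in Apc-min Bmal1-null libraries, against 3.88 to 32.8 TPM with a median of 19.9 TPM in Apc-min libraries, and these ranges overlap. The mean was 24.4 TPM ± 6.70 in Apc-min Bmal1-null and 16.8 TPM ± 8.26 in Apc-min organoids (SD, n = 22 each). The difference was 0.67 ± 0.22 (SE), or 0.79 without the pair of doubted libraries, and Apc-min Bmal1-null organoids were higher at 10 of 12 time points. By size it ranked 1620 of 12885 genes, of which 60.3% were called between these genotypes. Relative to the change in organoids with wild-type Apc, the difference of the 2 Bmal1 differences was 2.79 ± 0.22, or 2.91 without the doubted pair. Read across Apc, Igfbp4 differed by 0.76 ± 0.10 in Apc-min Bmal1-null over Bmal1-null organoids, at 11 of 12 time points, and by -2.02 ± 0.19 in Apc-min over control organoids, at 12 of 12.

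The higher level in Apc-min Bmal1-null organoids was seen in 1 of the 2 library sets, when sets of the same name were compared. In lower-numbered libraries without the doubted pair, Igfbp4 was at 23.1 to 33.9 TPM in 11 Apc-min Bmal1-null libraries, against 3.88 to 12.99 TPM in 9 Apc-min libraries, and the ranges do not overlap. In higher-numbered libraries it was at 13.03 to 31.1 TPM in 10 Apc-min Bmal1-null libraries, against 16.5 to 32.8 TPM in 12 Apc-min libraries, and the means were 22.8 and 22.8 TPM. The difference between the genotypes was 1.41 in the lower-numbered set with the doubted pair and 0.03 in the higher-numbered set. The doubted pair was also apart on this gene, at 6.22 TPM in the library labelled Apc-min Bmal1-null and 24.3 TPM in the library labelled Apc-min. Whether the library sets are the organoid lines is not given in the labels. Sets are named within a genotype, so sets of the same name need not match between genotypes. Set crosswise, the mean was 27.5 TPM in lower-numbered Apc-min Bmal1-null libraries against 22.8 TPM in higher-numbered Apc-min libraries. The other way it was 22.8 TPM against 7.96 TPM, both without the doubted pair.

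The split of Igfbp4 between library sets within Apc-min organoids is a description, with no test. Its log2 difference, higher-numbered over lower-numbered, was 1.35 ± 0.19 (SE), and 1.54 ± 0.11 without the doubted library. The other genes were tested between the sets of each genotype after that split was seen. In Apc-min organoids 2 of 5 that passed the filter of a mean of 1 TPM were called, where 59.5% of all genes tested differed between the sets of this genotype, or 67.1% without the doubted library. Igfbp5 was lower in the higher-numbered set, at -0.92 ± 0.16 (limma, adjusted p = 0.000369) and Igf1r was higher by 0.36 ± 0.09 (adjusted p = 0.00582). In Apc-min Bmal1-null organoids none of 3 genes was called, beside 2.06% of all genes (5.73% without the doubted library), in Bmal1-null organoids none of 2 beside 0.502%, and in control organoids Insr alone of 2 (-0.45 ± 0.14, adjusted p = 0.0408) beside 24.4%. For Igfbp4 the set differences in those genotypes were -0.09 ± 0.16, -0.04 ± 0.09 and -0.05 ± 0.06. Without the doubted library that in Apc-min Bmal1-null organoids was -0.24 ± 0.10, with means of 22.8 TPM in the higher-numbered and 27.5 TPM in the lower-numbered set.

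**Figure D2:**
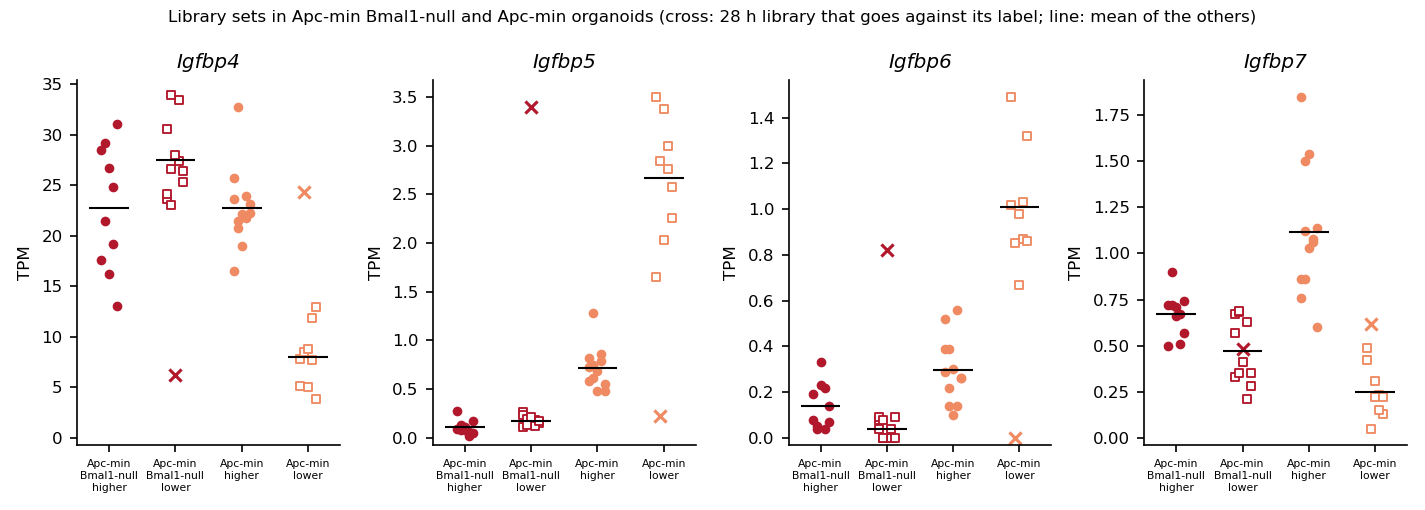
Levels in TPM (y axis) of Igfbp4, Igfbp5, Igfbp6 and Igfbp7 in the higher-numbered and lower-numbered libraries of Apc-min Bmal1-null and Apc-min organoids (x axis), with 1 point per library, a line at the mean without the doubted libraries and crosses for the doubted libraries. Within Apc-min organoids, Igfbp4 and Igfbp7 are higher and Igfbp5 and Igfbp6 are lower in the higher-numbered set, with no overlap once the cross is left out. Igfbp2, Igfbp3, Igf1r and Insr, which are not shown, overlap between these sets. Without the doubted library 67.1% of all genes tested were called between them, and the share of all genes without overlap is not given. Of the genes shown, Igfbp5 alone was tested between the sets.

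Igfbp3 (ENSMUSG00000020427, chromosome 11, minus strand, 7206086 to 7213923), the gene of the main IGF carrier of blood plasma, separated the Apc genotypes. It was at 9.21 to 17.5 TPM (median 13.7 TPM) in Apc-min Bmal1-null and 12.3 to 22.5 TPM (median 14.2 TPM) in Apc-min libraries, against 0.04 to 0.22 TPM in Bmal1-null and 0.02 to 0.33 TPM in control libraries. The ranges of the Apc genotypes do not overlap, in either library set. Igfbp3 passed the filter only through the genotypes where it is high, as Igfbp2 and Igfbp5 below did. The tests of these genes between genotypes are therefore given from a fit with no filter on low values. In that fit every gene with a value above 0 was tested. The rise was 3.75 ± 0.05 (SE, n = 44) in Apc-min Bmal1-null over Bmal1-null organoids (limma, adjusted p = 3.43e-35) and 3.79 ± 0.05 (n = 44) in Apc-min over control organoids (adjusted p = 4.1e-37). These values, 13.4-fold and 13.9-fold, understate the change of a gene that is near 0 in one group. Between Apc-min Bmal1-null and Apc-min organoids the difference was -0.05 ± 0.06 (limma with no filter, adjusted p = 0.513). With the filter and median-of-ratios scaling it was 0.01 (limma, adjusted p = 0.87). The 3′ end of the next gene, Igfbp1, lies 3.5 kb from that of Igfbp3, and it encodes the binding protein known for its control by insulin in liver. Igfbp1 was at 0.57 to 4.67 TPM in Apc-min Bmal1-null and 0.65 to 13 TPM in Apc-min libraries, against at most 0.04 TPM in Bmal1-null and at most 0.08 TPM in control libraries. It was lower in Apc-min Bmal1-null than in Apc-min organoids, at -1.13 ± 0.14 (adjusted p = 2.58e-08). The values of 4.67 and 0.65 TPM were those of the doubted pair, and without them Igfbp1 was at 0.57 to 4.48 TPM in Apc-min Bmal1-null and 2.56 to 13 TPM in Apc-min libraries and differed by -1.27 ± 0.08.

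Igfbp2 and Igfbp5 lie next to each other on chromosome 1, with 5.5 kb between them, and were both highest in Apc-min organoids, at low levels. Both passed the filter through Apc-min organoids alone. Igfbp2 (ENSMUSG00000039323, 72824503 to 72852474 on the plus strand) encodes a secreted binding protein that is abundant in fetal tissue. It was at 0 to 0.32 TPM (median 0.105 TPM) in Apc-min Bmal1-null libraries, against 0.22 to 2.98 TPM (median 0.765 TPM) in Apc-min libraries. Without the doubted pair the ranges did not overlap, at 0 to 0.22 TPM against 0.29 to 2.98 TPM. Organoids with wild-type Apc held 0 to 0.61 TPM (Bmal1-null) and 0.05 to 0.71 TPM (control). Igfbp2 fell by 0.78 ± 0.10 in Apc-min Bmal1-null over Apc-min organoids (limma with no filter, adjusted p = 1.08e-07) and was lower at 12 of 12 time points. It rose by 0.63 ± 0.09 in Apc-min over control organoids (adjusted p = 1.53e-07), at 12 of 12 time points.

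Igfbp5 (ENSMUSG00000026185, 72857932 to 72874884 on the minus strand) encodes a binding protein that attaches to extracellular matrix. It was at 0.02 to 3.4 TPM (median 0.14 TPM) in Apc-min Bmal1-null libraries, against 0.23 to 3.5 TPM (median 0.84 TPM) in Apc-min libraries. The doubted pair held both odd values, 3.4 TPM in the library labelled Apc-min Bmal1-null and 0.23 TPM in the library labelled Apc-min, and without them the ranges were 0.02 to 0.28 TPM and 0.48 to 3.5 TPM, with no overlap. Bmal1-null libraries held 0.03 to 0.19 TPM and control libraries 0.05 to 0.2 TPM. Igfbp5 fell by 0.89 ± 0.18 in Apc-min Bmal1-null over Apc-min organoids (limma with no filter, adjusted p = 2e-04), and the difference was -1.02 without the doubted pair. It rose by 1.05 ± 0.14 in Apc-min over control organoids (adjusted p = 5.39e-08). Within Apc-min organoids its mean was 0.719 TPM in the higher-numbered and 2.67 TPM in the lower-numbered set without the doubted library, the reverse of Igfbp4, which was at 22.8 and 7.96 TPM.

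Igfbp6 and Igfbp7 did not reach a mean of 1 TPM in any genotype and were tested only with no filter. Igfbp6 (ENSMUSG00000023046, chromosome 15, 102144362 to 102149511 on the plus strand), whose protein binds IGF-2 in preference to IGF-1, was at 0 to 0.82 TPM in Apc-min Bmal1-null and 0 to 1.49 TPM in Apc-min libraries, against 0 to 0.3 TPM in Bmal1-null and 0 to 0.22 TPM in control libraries. The highest Apc-min Bmal1-null value and the lowest Apc-min value were those of the doubted pair. With no filter Igfbp6 fell by 0.45 ± 0.10 in Apc-min Bmal1-null over Apc-min organoids (limma, adjusted p = 0.000767) and rose by 0.45 ± 0.08 in Apc-min over control organoids (adjusted p = 2.84e-05). Igfbp7 (ENSMUSG00000036256, chromosome 5, minus strand, 77349240 to 77408041), the gene of a distant relative with low affinity for IGF, had means of 0.561 TPM ± 0.179 in Apc-min Bmal1-null, 0.738 TPM ± 0.510 in Apc-min, 0.565 TPM ± 0.151 in Bmal1-null and 0.447 TPM ± 0.145 in control organoids (SD, n = 22 each), and all ranges overlap. With no filter it rose by 0.23 ± 0.10 in Apc-min over control organoids (limma, adjusted p = 0.0451). The SD was widest in Apc-min organoids, where the means of the higher-numbered and lower-numbered sets were 1.12 and 0.247 TPM without the doubted library. In control organoids those means were 0.425 and 0.469 TPM. Igfbp7 was thus higher in Apc-min than in control organoids in the higher-numbered set and lower in the lower-numbered set.

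**Figure D3:**
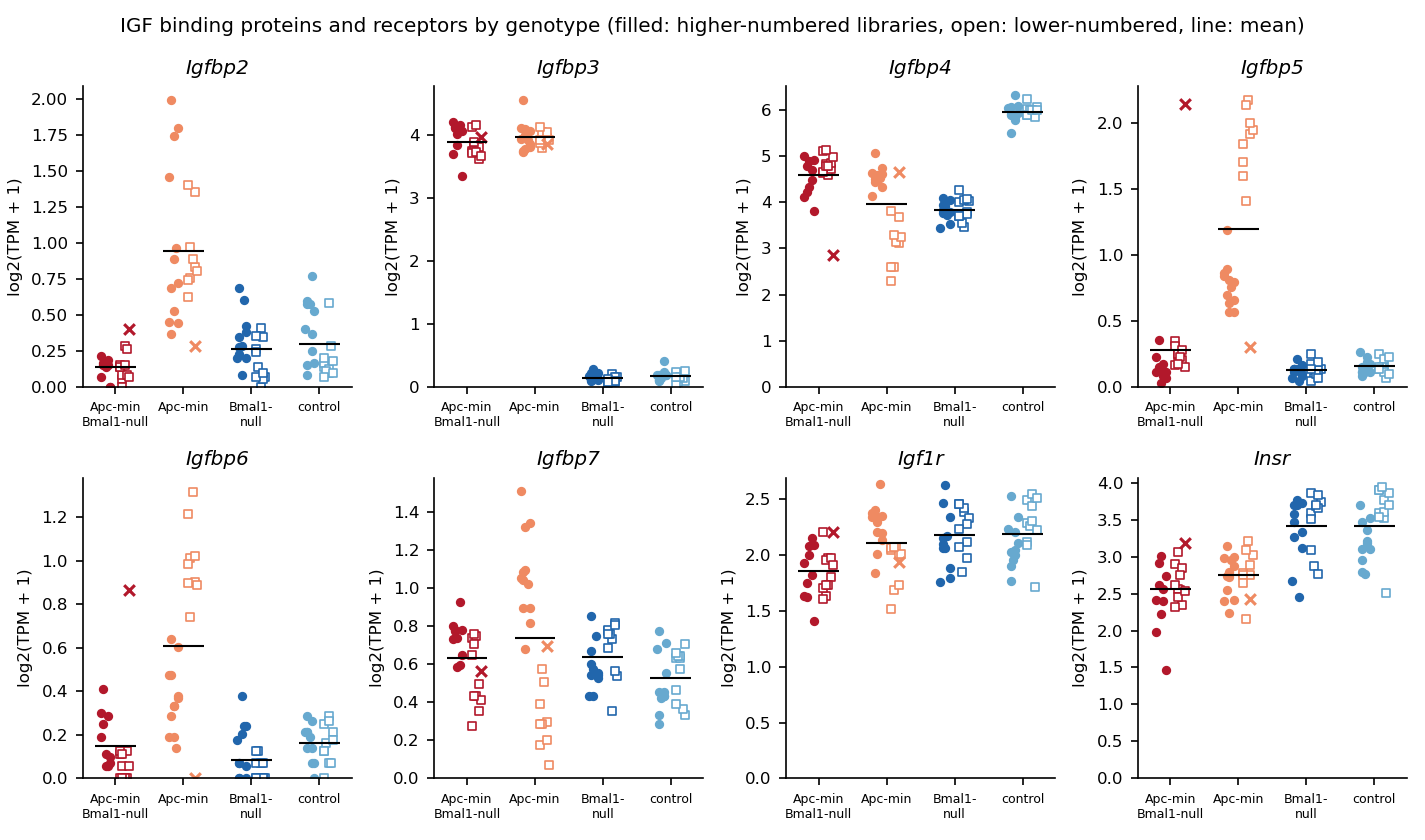
Levels of the 8 genes as log2(TPM + 1) (y axis) in the 4 genotypes (x axis), with 1 point per library, filled for the higher-numbered and open for the lower-numbered set, crosses for the doubted pair and a line at the mean of all 22 libraries. Igfbp3 is high in both genotypes with APCmin/-, Igfbp4 is highest in control, and Igfbp2, Igfbp5 and Igfbp6 reach their highest values in Apc-min libraries.

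The sum of the levels of the 6 binding proteins and Igfbp1 was close in both genotypes with APCmin/- only as a mean over both library sets. Its makeup differed there, mostly in the lower-numbered set. The sum was lower in Bmal1-null than in control organoids, where Igfbp4 made up most of it in both. It averaged 41.4 TPM ± 7.18 in Apc-min Bmal1-null and 41.3 TPM ± 10.5 in Apc-min organoids, against 14.4 TPM ± 2.22 in Bmal1-null and 62.6 TPM ± 6.91 in control organoids (SD, n = 22 each). Igfbp4 made up 92.7% ± 1.6 of this sum in Bmal1-null and 98.3% ± 0.388 in control organoids. It made up 58% ± 10.2 in Apc-min Bmal1-null and 38.8% ± 14.6 in Apc-min organoids, where Igfbp3 held 34.6% ± 6.15 and 37% ± 7.31 and Igfbp1 held 4.56% ± 2.98 and 14.3% ± 5.68. Without the doubted pair the share of Igfbp4 was 59.8% ± 5.88 in Apc-min Bmal1-null and 37.7% ± 14 in Apc-min organoids (SD, n = 21 each). By set and without that pair, it was 63.8% ± 4.6 against 22.6% ± 4.48 in lower-numbered libraries (n = 11 and 9). In higher-numbered libraries it was 55.5% ± 3.59 against 49.1% ± 3.53 (n = 10 and 12). The sum was 43 TPM ± 3.63 against 34.2 TPM ± 7.11 in the lower-numbered set. In the higher-numbered set it was 40.8 TPM ± 9.45 against 46.7 TPM ± 10. TPM is a level per length of transcript, so these shares compare transcripts and not protein.

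Insr was lower where Apc was mutated, and Igf1r was lower in 1 of the 2 Apc comparisons. Insr (ENSMUSG00000005534, chromosome 8, 3122061 to 3279617 on the minus strand) was at 1.76 to 8.07 TPM (median 4.90 TPM) in Apc-min Bmal1-null and 3.45 to 8.25 TPM (median 5.80 TPM) in Apc-min libraries, against 4.49 to 13.5 TPM (median 11 TPM) in Bmal1-null and 4.70 to 14.4 TPM (median 10.5 TPM) in control libraries. The ranges overlap. The 8.07 TPM was that of the doubted library, and the next highest of its genotype was 7.33 TPM. Insr fell by 0.85 ± 0.12 in Apc-min Bmal1-null over Bmal1-null organoids (limma, adjusted p = 1.14e-07), at 12 of 12 time points, and by 0.67 ± 0.11 in Apc-min over control organoids (adjusted p = 1.64e-06), at 11 of 12. Igf1r (ENSMUSG00000005533, chromosome 7, 67952827 to 68233668 on the plus strand) was at 1.65 to 3.63 TPM (median 2.64 TPM) in Apc-min Bmal1-null and 1.87 to 5.21 TPM (median 3.21 TPM) in Apc-min libraries, against 2.39 to 5.2 TPM (median 3.48 TPM) in Bmal1-null and 2.28 to 4.85 TPM (median 3.65 TPM) in control libraries. It fell by 0.33 ± 0.07 in Apc-min Bmal1-null over Bmal1-null organoids (adjusted p = 6.28e-05), a call that higher-numbered libraries alone did not give (-0.30, adjusted p = 0.0526). In Apc-min over control organoids it differed by -0.07 ± 0.08 (adjusted p = 0.422), and this value was -0.30 in the lower-numbered (adjusted p = 0.0244) and 0.17 in the higher-numbered set (adjusted p = 0.0758). The level of Insr over that of Igf1r averaged 1.94 ± 0.579 in Apc-min Bmal1-null and 1.80 ± 0.493 in Apc-min organoids, against 2.81 ± 0.656 in Bmal1-null and 2.75 ± 0.520 in control organoids (SD, n = 22 each).

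Loss of Bmal1 alone left no call on the receptors. In Bmal1-null over control organoids Igf1r differed by 0.00 ± 0.07 and Insr by 0.01 ± 0.12 (SE). Neither of these 2 was called in limma or had an unadjusted p under 0.05 (adjusted p = 1 for each), beside 3.56% of all 12654 genes called. With no filter none of the 7 genes was called there in limma, beside 1.58% of 29552, with 2 at an unadjusted p under 0.05, Igfbp6 (-0.07) and Igfbp7 (0.11). In Apc-min Bmal1-null over Apc-min organoids Igf1r fell by 0.25 ± 0.08 (adjusted p = 0.00534) and Insr differed by -0.14 ± 0.09 (adjusted p = 0.181). Without the doubted pair Insr was called (-0.18, adjusted p = 0.0468). In the lower-numbered set alone Igf1r was not called (-0.07, adjusted p = 0.536).

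**Figure D4:**
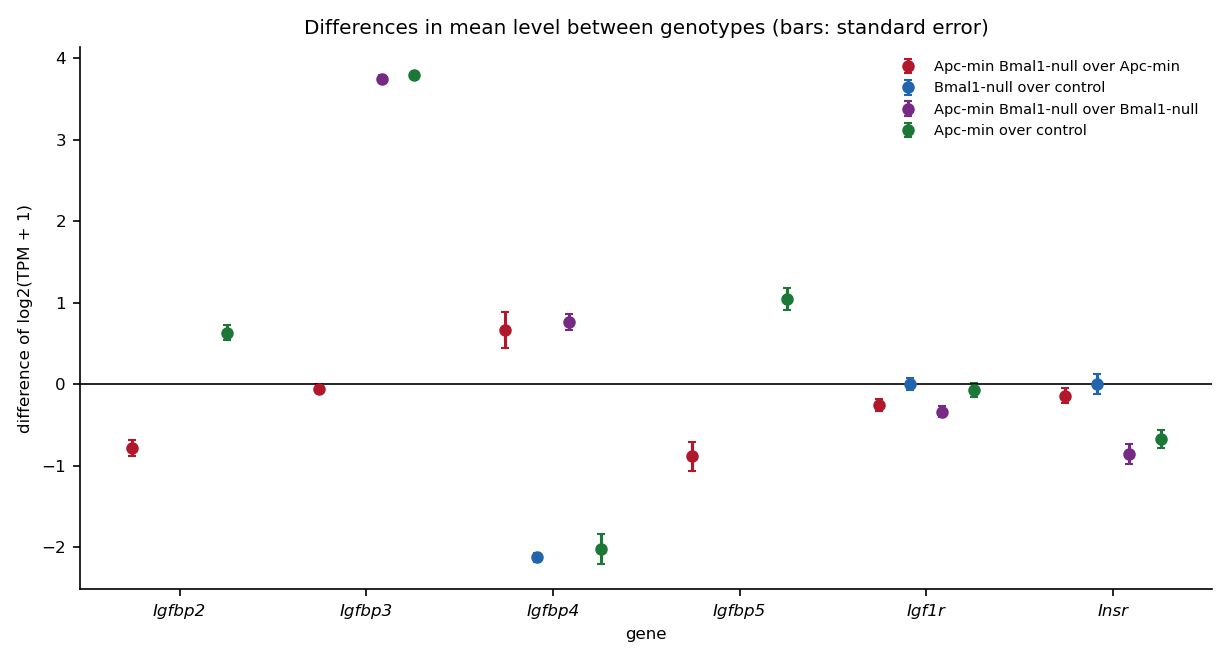
Difference of mean log2(TPM + 1) (y axis) for the 6 genes that passed the filter (x axis) in the 4 comparisons, with SE bars over 44 libraries and no point where neither genotype averaged 1 TPM. The 2 Bmal1 differences of Igfbp4 lie on opposite sides of 0 (0.67 and -2.13), and the 2 Apc differences of Igfbp3 lie close together (3.75 and 3.79).

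With no filter, which lets in all 7 genes other than Igfbp4, 4 of 7 were called in Apc-min Bmal1-null over Apc-min organoids (Igfbp2, Igfbp5, Igfbp6 and Igf1r, all lower), beside 32% of 31503 genes. In Apc-min over control organoids 6 of 7 were called (Igfbp2, Igfbp3, Igfbp5, Igfbp6 and Igfbp7 higher, Insr lower), beside 52.9% of 31821. In Apc-min Bmal1-null over Bmal1-null organoids 4 of 7 were called (Igfbp3 higher, Igfbp2, Igf1r and Insr lower), beside 54% of 31342, with Igfbp2 at -0.12 ± 0.05 (limma, adjusted p = 0.0218). The counts with the filter follow as a description only, since Igfbp2, Igfbp3 and Igfbp5 passed through the groups where they are high. With it, 3 of 5 genes were called in Apc-min Bmal1-null over Apc-min organoids (Igfbp2, Igfbp5 and Igf1r, all lower), beside 60.3% of all 12885 genes. Without the doubted pair Insr was added, beside 65.9%. All genes split 24.6% higher to 35.7% lower there, and 35.4% to 30.8% with median-of-ratios scaling, under which Igfbp2 no longer passed the filter and Igfbp5 and Igf1r were called. In Apc-min over control organoids 4 of 5 were called (Igfbp2, Igfbp3 and Igfbp5 higher, Insr lower), beside 81.6% of 13663 genes (81.5% without the doubted library). In Apc-min Bmal1-null over Bmal1-null organoids 3 of 3 were called (Igfbp3 higher, Igf1r and Insr lower), beside 84.5% of 13404 (85.2% without the doubted library), with 45.7% of all genes higher and 38.8% lower, or 43.6% and 43% after scaling. The counts with the filter are near the shares with the filter, and the 2 comparisons across Apc share no library. The median of all genes was 0.167 in Apc-min over control organoids and 0.012 after median-of-ratios scaling, with 50.5% of genes higher and 31.1% lower before and 40.7% and 40% after. Under that scaling Igf1r was also called lower in Apc-min over control organoids (-0.20, adjusted p = 0.00388), Igfbp2 no longer passed the filter there, and the other calls in both Apc comparisons held. With the 2 library sets of each genotype averaged and taken as its only replicates, none of the 5 genes was called in Apc-min Bmal1-null over Apc-min organoids, while 4 of 5 and 3 of 3 were still called in the Apc comparisons.

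The Bmal1 differences were set against each other in an interaction test over all 88 libraries. With no filter it called 3 of 7 genes, beside 23.8% of 33524, all with a lower difference where Apc was mutated. The interaction was -0.76 ± 0.11 for Igfbp2 (limma with no filter, adjusted p = 3.72e-08), -0.87 ± 0.17 for Igfbp5 (adjusted p = 2.74e-05) and -0.37 ± 0.10 for Igfbp6 (adjusted p = 0.0023). With the filter it called Igfbp2, Igfbp5 and Igf1r, beside 47.7% of 13846 genes (53.3% without the doubted pair), the first 2 of which passed through Apc-min organoids alone. Igf1r was at -0.25 ± 0.10, called with the filter (adjusted p = 0.0377) and not called without it (adjusted p = 0.0672). The interaction was -0.04 ± 0.06 for Igfbp3 (limma with no filter, adjusted p = 0.737) and -0.18 ± 0.16 for Insr (limma with the filter, adjusted p = 0.375). With the filter all genes split 18.1% higher to 29.6% lower, and 28.3% to 25.2% with median-of-ratios scaling, under which Igfbp2 no longer passed the filter and Igfbp5 and Igf1r were called. Igfbp2, Igfbp5 and Igfbp6 averaged 0.241, 0.114 and 0.12 TPM in control organoids and stayed under 1 TPM in all libraries with wild-type Apc. A fall in Bmal1-null organoids had little room at these levels. The interaction of these genes therefore mostly repeats their difference in organoids with APCmin/-, and cannot show that a fall depends on Apc. The call on Igf1r was lost on leaving out any of 13 of the 88 libraries, and no gene was called with the library sets as the only replicates.

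Over time, Igfbp2 changed most. In Apc-min organoids it was at 0.37 TPM at 24 h (1 library), and at 2.98 TPM in the higher-numbered and 1.65 TPM in the lower-numbered library at 46 h. In Apc-min Bmal1-null libraries it stayed at or under 0.32 TPM throughout, or 0.22 TPM without the doubted library. In control organoids Igfbp2 went from 0.11 TPM at 24 h to 0.49 TPM at 46 h in higher-numbered and from 0.10 to 0.15 TPM in lower-numbered libraries. In Bmal1-null organoids it went from 0.27 to 0.61 TPM and from 0.20 to 0.28 TPM. Outside Apc-min organoids Igfbp2 was below the filter, so its trend was not tested. The linear trend in Apc-min organoids was 0.06 ± 0.01 per hour (limma, adjusted p = 0.00016), which is 1.28 over the 22 h sampled. Insr (0.58 over the 22 h, adjusted p = 0.0105) and Igfbp3 (0.34, adjusted p = 0.0202) also rose, so that 3 of 6 genes were called, beside 31.2% of all genes (22.2% higher), or 25.4% without the doubted library, when the same 3 were called. The call on Igfbp3 was lost without the higher-numbered library at 46 h (adjusted p = 0.059), which at 22.5 TPM was the highest of all, and after median-of-ratios scaling (adjusted p = 0.108). Igfbp4 in Apc-min organoids was not called (0.01 ± 0.02 per hour, adjusted p = 0.702). Its higher-numbered libraries taken alone were (0.03 per hour, limma, adjusted p = 0.00172), with 16.5 TPM at 24 h and 32.75 TPM at 46 h. In lower-numbered libraries alone no trend was called, but the level was also higher late. It was 5.09 TPM at 26 h and 12.99 TPM at 46 h, with the doubted library at 24.31 TPM at 28 h. The rise is thus not particular to the higher-numbered set.

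In Apc-min Bmal1-null organoids Igfbp4 was the 1 gene of 4 with a called trend, beside 8.44% of all genes (5.62% higher). It rose by 0.93 over the 22 h (0.04 ± 0.01 per hour, limma, adjusted p = 0.034). At 24 h it was at 17.6 and 23.6 TPM and at 44 h at 31.1 and 30.6 TPM in the higher-numbered and lower-numbered library. Without the doubted library the slope was 0.03 per hour (adjusted p = 0.00531), beside 17.5% of all genes. Leaving out any of 6 other libraries, at 24, 28, 40, 44 or 46 h, ended the call, with adjusted p up to 0.0763. In Bmal1-null and in control organoids none of 3 genes was called for a trend, beside 6.71% and 2.2% of all genes, with 0 and 1 gene at an unadjusted p under 0.05 in limma. The 1 gene was Igfbp4 in control organoids (0.27 over the 22 h, adjusted p = 0.17), and it was called after median-of-ratios scaling (adjusted p = 0.0141).

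**Figure D5:**
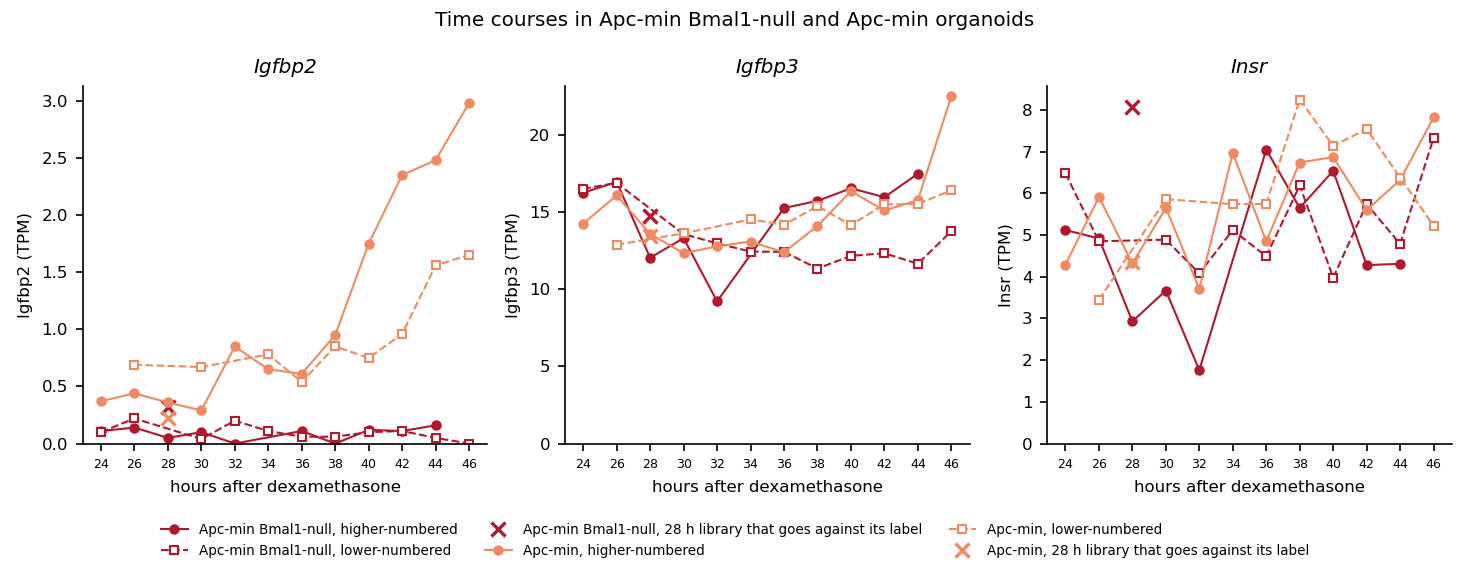
Igfbp2, Igfbp3 and Insr in TPM (y axes) against hours after dexamethasone (x axes) in Apc-min Bmal1-null and Apc-min organoids, with lines joining the libraries of a set and crosses for the doubted pair. Igfbp2 climbs to 2.98 and 1.65 TPM at 46 h in the Apc-min sets and stays at or under 0.32 TPM in Apc-min Bmal1-null libraries.

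A cosine of 24 h period was fitted to ask whether these genes cycle. A series of 22 h covers less than 1 cycle, so a cosine cannot be told from another change that happens once. In Apc-min organoids 3 of 6 genes were called, beside 12% of all genes: Igfbp2 (log2 amplitude 0.49 ± 0.10, peak at 42.9 h, adjusted p = 0.0187), Igfbp3 (0.17 ± 0.05, 44.3 h, adjusted p = 0.0434) and Insr (0.26 ± 0.07, 40.2 h, adjusted p = 0.0423). Without the doubted library Igfbp2 alone was called (adjusted p = 0.0429), beside 3.17%. The calls on Igfbp3 and Insr were also lost on leaving out any of 16 and 14 of the 22 libraries, and that on Insr after median-of-ratios scaling (adjusted p = 0.0542). With a linear time term in the fit none was (adjusted p = 1 for the 3 genes). In Apc-min Bmal1-null organoids none of 4 was called, beside 2.59%, with Igfbp4 at an unadjusted p under 0.05 in limma (amplitude 0.42 ± 0.11, adjusted p = 0.108). Without the doubted library Igfbp4 was called (0.30, adjusted p = 0.0373), beside 11.9%. In Bmal1-null organoids none of 3 was called, beside 0% of all genes, with 0 at an unadjusted p under 0.05, and in control organoids none of 3, beside 0.0557%, with 1, Igf1r (amplitude 0.19 ± 0.07, adjusted p = 0.377). For Igfbp4 in control organoids the amplitude was 0.06 ± 0.05 (adjusted p = 0.711). The test of a cosine difference called none of 6 genes in Apc-min Bmal1-null against Apc-min organoids, beside 0%, with 1, Igfbp2, at an unadjusted p under 0.05 (adjusted p = 0.475). It called none of 3 in Bmal1-null against control organoids, beside 0.0395%, with 0 at an unadjusted p under 0.05.

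The other genes of the pathway were read from a list of 38 ligands, receptors, adaptors, proteases and downstream kinases. Of the ligands, Igf2 was highest in Apc-min organoids. Igf2, which encodes the fetal ligand IGF-2, was at 0 to 15.6 TPM (median 0.06 TPM) in Apc-min Bmal1-null libraries, against 0.06 to 35.4 TPM (median 24.2 TPM) in Apc-min libraries. Without the doubted pair the ranges were 0 to 0.39 TPM and 9.29 to 35.4 TPM. Bmal1-null libraries held 0.53 to 1.83 TPM and control libraries 0.47 to 1.66 TPM. Igf1 was at 0 to 0.34 TPM in Apc-min Bmal1-null and 0 to 0.89 TPM in Apc-min libraries, ranges that overlap, was not tested, and is listed at 0 in all Bmal1-null and control libraries. Igf2r, whose product takes IGF-2 to the lysosome, averaged 31.4 TPM ± 10.5 in Apc-min Bmal1-null, 47.3 TPM ± 11.6 in Apc-min, 20.8 TPM ± 5.08 in Bmal1-null and 21.7 TPM ± 5.22 in control organoids (SD, n = 22 each).

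In Apc-min Bmal1-null over Apc-min organoids 4 of 30 tested list genes were higher and 15 lower (limma), beside 24.6% of all genes higher and 35.7% lower, with a median difference of -0.16 beside -0.04 for all genes, and 4 and 16 without the doubted pair. The 4 that moved most were Igf2, Grb10, Grb14 and Htra1. Igf2 differed by -4.00 ± 0.33, and by -4.40 without the doubted pair. Averaging 0.82 TPM in Apc-min Bmal1-null organoids, Igf2 passed the filter through Apc-min organoids alone, where it is high, so no p is given. The receptor adaptors Grb10 (-2.88 ± 0.24) and Grb14 (-2.38 ± 0.34) restrain insulin signalling. Htra1 (-2.52 ± 0.38) is a secreted protease. Igf2r fell by 0.57 ± 0.12 (adjusted p = 0.000197). In Apc-min over control organoids 17 of 30 were higher and 6 lower, or 13 and 9 after median-of-ratios scaling, beside 50.5% and 31.1% of all genes, or 40.7% and 40% after scaling, with a median of 0.22 beside 0.167 for all genes. Grb14 (3.76 ± 0.26), Igf2 (3.36 ± 0.23), Htra1 (3.18 ± 0.29) and Igfbp1 (2.63 ± 0.12) rose most, and Igf2r rose by 1.08 ± 0.12. Some list genes, Htra1 and Igfbp1 among them, passed the filter there only through Apc-min organoids, where they are high. With no filter 17 of 36 list genes were higher and 9 lower, beside 32.1% and 20.7% of all genes. In Apc-min Bmal1-null over Apc-min organoids 4 of 36 were higher and 16 lower with no filter, beside 11.5% and 20.5%.

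In Apc-min Bmal1-null over Bmal1-null organoids 12 of 30 list genes were higher and 10 lower, beside 45.7% and 38.8% of all genes, or 10 and 11 of 28 without the doubted library, with a median of 0.08 beside 0.07. Pik3r1, a regulatory subunit of PI3K, fell by 1.65 ± 0.13, Igfbp1 rose by 1.43 ± 0.11, the receptor substrate Irs2 fell by 1.29 ± 0.11 and Grb14 rose by 1.29 ± 0.17. Igf2 was lower by 0.69 ± 0.18 and Igf2r rose by 0.52 ± 0.14 (limma, adjusted p = 0.000706). Igfbp1 passed the filter here only through Apc-min Bmal1-null organoids and Igf2 only through Bmal1-null organoids, so no p is given for them. With no filter 13 of 36 list genes were higher and 13 lower in this comparison, beside 27.9% and 26.1% of all genes. In Bmal1-null over control organoids none of 26 list genes was called in limma, with 1 at an unadjusted p under 0.05 and a median of -0.01 beside 0.00. Igf2 differed by 0.00 ± 0.08 and Igf2r by -0.05 ± 0.11 (adjusted p = 1 for each). The interaction called 1 list gene higher and 14 lower, of 30, beside 18.1% and 29.6% of all genes. After median-of-ratios scaling it called 5 and 14, beside 28.3% and 25.2%. With no filter it called 1 and 14 of 36, beside 7.95% and 15.9%. With the filter Igf2 was at -4.00 ± 0.31, Grb10 at -2.73 ± 0.24, Htra1 at -2.59 ± 0.36 and Grb14 at -2.45 ± 0.33.

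Likeness to Igfbp4 was described by Pearson's r of log2(TPM + 1) over the 88 libraries, among the 10436 genes that averaged at least 5 TPM in some genotype, predicted genes left out. All points share the 4 genotypes, so r mostly follows genotype means, and no p is given. The highest r was that of Clic6 at 0.751, an intracellular chloride channel family gene, which averaged 6.70 TPM in Apc-min Bmal1-null, 6.62 TPM in Apc-min, 10.9 TPM in Bmal1-null and 19.04 TPM in control organoids. Tlcd2 (0.637), Acsl5 (0.629), Ptprd (0.609) and Cdca7 (0.601) followed. The lowest were Fcho1 (-0.683), Lactb (-0.625), Sult1a1 (-0.596), Gstm2 (-0.588) and Leprotl1 (-0.587). Fcho1 averaged 8.87 TPM in Apc-min Bmal1-null, 14.99 TPM in Apc-min, 5.93 TPM in Bmal1-null and 3.36 TPM in control organoids. Of the neighbours of Igfbp4 on chromosome 11, Top2a, at a distance of 17.1 kb, averaged 218 TPM in Apc-min Bmal1-null, 199 TPM in Apc-min, 136 TPM in Bmal1-null and 138 TPM in control organoids. Tns4, at 11.3 kb, averaged 67 TPM in Apc-min Bmal1-null, 115 TPM in Apc-min, 15.9 TPM in Bmal1-null and 19.6 TPM in control organoids.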

How the data were processed

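RNA-seq values were read for 88 libraries of mouse intestinal organoids, 22 of each of 4 genotypes. The 8 genes, the 38 pathway genes and the marker lists were chosen with earlier results of these data known. The authors deposited TPM values in 1 table per genotype, of 55536 gene IDs each, and per the submitters' processing notes STAR 2.5, RSEM 1.3.0 and GRCm38 were used, with no role or order given. The read counts and the percent of reads unmapped as too short are, per the file headers, the aligner's own numbers, deposited without normalization. The other 8 of 96 labelled libraries were not analysed here. A further immune marker is not reported here. Quantile-normalized tables were not used, because their headers name only time points.

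Values were put on the log2(TPM + 1) scale, and any gene averaging at least 1 TPM in one of the compared genotypes was tested in limma 3.58.1 (R 4.3.3) with a variance trend. Of the 8 genes, those that passed only through a genotype where they are high have their genotype tests from the alternative with no filter. Tests of single pathway genes are those with the filter. Mean levels were compared with the time point as a factor, the interaction over all 88 libraries, and time by a linear term or by a cosine and a sine of 24 h period. A call is a Benjamini-Hochberg adjusted p under 0.05 over all genes tested, and "rose" and "fell" mean a call. A positive difference means a higher level in the genotype named first. SE is that of the limma coefficient. With 28.8 M to 48.1 M mapped reads per library, levels under 0.1 TPM rest on few reads, and TPM keeps no count, so no counting interval is given. The library sets are the lower and higher library number within a genotype and time point. All 8 genes are named, with Arntl and Apc, and from the pathway list up to 4 called genes of largest difference per comparison, plus Igf1, Igf2 and Igf2r. Tns4, Top2a, the correlations and the set comparison were added after values were seen. The alternatives were a pseudocount of 0.1, no filter, a filter of 5 TPM, median-of-ratios scaling, leaving out each library or the doubted pair, each library set alone, the set as a term or as the unit, time points with both libraries, a fit of all 4 genotypes, and a linear term beside the cosine. Fits were tested on simulated data. Coordinates are those of GENCODE M21 on GRCm38, and promoter sequences are RefSeq's on GRCm38.p6.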

Additional observations from a re-analysis of the deposited data

Results flagged for a closer look

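Limma's interaction test called Igfbp2, Igfbp5 and Igf1r for a Bmal1 difference that itself differed between the Apc genotypes. With the filter it called 47.7% of all 13846 genes, and with no filter 23.8% of 33524. Igfbp2 and Igfbp5 passed the filter of a mean of 1 TPM through Apc-min organoids alone, and with no filter both were called (adjusted p = 3.72e-08 and 2.74e-05) and Igf1r was not (adjusted p = 0.0672). The interaction was -0.762 for Igfbp2, -0.873 for Igfbp5 and -0.254 for Igf1r on the log2(TPM + 1) scale. For Igfbp2 the Bmal1 difference was -0.78 in Apc-min organoids, and in Bmal1-null and control organoids it was at or under 0.61 and 0.71 TPM in all libraries. For Igfbp5 the Bmal1 difference was -0.89 in Apc-min organoids, against levels at or under 0.19 and 0.2 TPM in Bmal1-null and control libraries. At such levels a fall had little room with wild-type Apc, so the interactions of Igfbp2 and Igfbp5 mostly repeat their differences with APCmin/-. For Igf1r the Bmal1 differences were -0.25 with APCmin/- and 0.00 with wild-type Apc, and the interaction was -0.03 in the lower-numbered (adjusted p = 0.85) and -0.44 in the higher-numbered library set (adjusted p = 0.0102). The cosine difference was called for none of the genes.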

How the results depend on the processing

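Of the counts of called genes and the Igfbp4 differences, 196 of 225 alternative values kept their direction and lay within the limits set for a match, which for Igfbp4 was 1 SD between libraries. That limit is wide in organoids with APCmin/-: the Igfbp4 difference in Apc-min Bmal1-null over Apc-min organoids, 0.67 over all libraries, was 0.03 in higher-numbered libraries and lay within it. The Igfbp4 difference in Apc-min Bmal1-null over Apc-min organoids moved to 1.41 in lower-numbered libraries, that in Apc-min over control organoids to -2.91 in lower-numbered and -1.39 in higher-numbered libraries, and the interaction to 3.54 and 2.15. No direction of a call was turned. Leaving out 1 library gave -2.15 to -2.11 for Igfbp4 in Bmal1-null over control, 0.57 to 0.76 in Apc-min Bmal1-null over Apc-min, -2.08 to -1.94 in Apc-min over control, 0.73 to 0.84 in Apc-min Bmal1-null over Bmal1-null organoids and 2.69 to 2.89 for the interaction.

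The 3 genes called in Apc-min Bmal1-null over Apc-min organoids became 0 with a filter of 5 TPM, where 2 were tested, 1 in lower-numbered libraries and 0 with set means as units. The 4 in Apc-min over control organoids became 2 with that filter, where 2 were tested. The 3 of the interaction became 0 with that filter, 1 in lower-numbered libraries, 0 with set means and 1 at time points with both libraries, and 1 to 3 on leaving out 1 library. The 3 cosine calls in Apc-min organoids became 1 with no filter, 1 without the doubted library, 0 in lower-numbered and 0 in higher-numbered libraries, 0 with a linear term and 0 to 3 on leaving out 1 library. The 0 in Apc-min Bmal1-null organoids became 1 without the doubted library, and 0 to 1 on leaving out 1 library. Trends in Apc-min organoids went to 0 in lower-numbered libraries and 1 to 3 on leaving out 1 library. In Apc-min Bmal1-null organoids the 1 trend went to 0 with no filter, in lower-numbered and in higher-numbered libraries, and 0 to 1 on leaving out 1 library, and in control organoids 0 became 1 with median-of-ratios scaling. Fewer genes passed the stricter filter and fewer samples entered the set fits, and for the rest the cause was not tested. For single genes 460 of 497 alternative values kept their call, 31 lost it and 6 gained it.

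The quantile-normalized tables were not run, since their columns carry no sample names. No paired analysis was possible because the replicate numbers of the libraries were given in accession order and pair no samples.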

Other observations

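The levels of many genes varied together with that of Insr between libraries of 1 genotype, so its likeness to single genes is given beside that of all genes, as a description chosen after the values were seen, with no test. Over the 22 libraries of a genotype, the median Pearson's r of log2 levels with Insr was 0.601 in Apc-min Bmal1-null, 0.327 in Apc-min, 0.595 in Bmal1-null and 0.674 in control organoids, over the genes that averaged at least 5 TPM in some genotype. Igf2r had r of 0.94, 0.894, 0.936 and 0.888 in the same order of genotypes, which was rank 67 of 10937, 274 of 10933, 504 of 10939 and 2128 of 10940 genes. Igf1r had r of 0.424, 0.37, 0.603 and 0.808. Without the 2 libraries farthest from the median of Igf1r these were 0.108, 0.351, 0.521 and 0.756. Insr also went with the percent of reads unmapped as too short, at r of -0.801, -0.147, -0.391 and -0.189. Without the 2 libraries farthest from the median percent these were -0.476, -0.0334, -0.474 and -0.306. The part of library quality in the likeness of genes to Insr was not tested.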
